A study of Mus musculus with 12 samples.

Results

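The oocytes of PND 40 and PND 16 large mice were compared here across all genes of the count table, 3 pools vs. 3 pools, which are 6 of the 12 pools sequenced. The pools were chosen by their cohort labels and not by any measured value. CD-1 mice, an outbred strain, were taken on postnatal day (PND) 13, 16 or 40, and the PND 16 mice were divided by body weight into small and large. Oocytes with an intact germinal vesicle were isolated from antral follicles of ovaries that had received no gonadotropins, the cumulus cells were stripped off mechanically, and pools of 18 to 45 oocytes were frozen. By the study's account, meiotic competence was a property of both cohorts compared and was largely lacking in the younger and the smaller mice. The comparison therefore asks what differs between 2 cohorts that have both acquired competence. Age, body size and pubertal status differ together between them and cannot be told apart. In the study's age cohorts, oocytes and antral follicles were smaller around PND 16 than in older mice, and the layers of cumulus cells increased with age. Oocyte growth and follicular origin therefore cannot be told apart from age either.

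A mouse oocyte grows while arrested in prophase of the first meiotic division, and during this growth it transcribes and stores the mRNAs that carry it through meiosis and the first embryonic cleavages. Meiotic competence, the ability to leave the arrest, is acquired before growth ends, and developmental competence, the ability to support an embryo, is acquired later, as transcription falls silent. The oocyte is joined to its granulosa and cumulus cells by gap junctions and fine projections throughout, and the cells exchange secreted factors and metabolites.

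The 6 pools held between 23406819 and 27400984 counts, and each correlated with the other pools of its cohort at a mean Pearson r of 0.982 to 0.985 across genes on the log2 scale. The median SD of a gene over the 3 pools, on the log2 scale, was 0.149 in PND 16 large and 0.145 at PND 40, smaller than at PND 13 (0.206) or in PND 16 small (0.281). Levels are given as CPM (counts per unit of scaled library size), which are shares of the RNA counted in a pool and not copies per oocyte, and a value after ± is the SD over the 3 pools of a cohort. Fewer cells of a type and less RNA per cell cannot be told apart in such pools. The summed level of 20 granulosa and cumulus markers was 345 to 364 CPM in PND 16 large and 321 to 351 CPM at PND 40, ranges that overlapped (two-sided exact permutation p = 0.2, where 3 pools vs. 3 cannot give less than 0.1). Most of this sum was Esr2, at 135 (PND 16 large) and 144 CPM (PND 40), and Nr5a2, at 93.5 (PND 16 large) and 91.2 CPM (PND 40). Of the other markers some were lower and some higher at PND 40, so the overlap does not speak for each of them. The theca and stroma markers (216 to 248 and 206 to 227 CPM) and the blood, immune and endothelial markers (57.1 to 71.6 and 65.2 to 70.8 CPM) overlapped as well. Each of these sums was mostly 1 gene, Myh11 at 211 ± 24.5 (PND 16 large) and 210.3 ± 10.5 CPM (PND 40) and Pecam1 at 59.5 ± 6.62 (PND 16 large) and 59.1 ± 1.27 CPM (PND 40). The median log2 fold change of the 8 theca and stroma markers tested was -1.41, and none of the 8 was called by edgeR, although 1 had an unadjusted p under 0.05 and 1 was called with the 6 pools alone. DESeq2 with 12 pools also called 1 of the 8. The stromal collagen Col1a1 measured 2.09, 17.8 and 0.837 CPM in PND 16 large and 3.65, 1.83 and 1.91 CPM at PND 40, with 1 high pool in PND 16 large, and the smooth muscle actin Acta2 measured 1.06, 2.09 and 0.956 CPM in PND 16 large and 0.215, 0.558 and 0.0735 CPM at PND 40, without overlap. Col1a1 and Acta2 were chosen after their values were seen. Of the blood, immune and endothelial list 4 of the 14 genes, the hemoglobin genes Hba-a1, Hba-a2, Hbb-bs and Hbb-bt, had no count in any of the 6 pools. The markers of the oocyte summed to 20942 to 21840 CPM in PND 16 large and to 19149.7 to 19999 CPM at PND 40 (exact permutation p = 0.1).

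Of the 13940 genes tested, 510 (3.66%) were called different, which here means an adjusted p of at most 0.05 by edgeR's quasi-likelihood test (adjusted after Benjamini and Hochberg) and a change of at least 1.5-fold. Expression was higher at PND 40 for 326 of them (2.34% of the genes tested) and lower for 184 (1.32%). The spread between pools was estimated from all 12 pools, and when only the 6 compared pools were fitted 1084 genes (7.78%) were called, among them 494 of the 510. The 3 pools of one cohort all lay above the 3 of the other for 324 of the 326 genes that rose and for all 184 that fell, compared with 39.2% of all genes tested. Genes were called from these same pools, so this largely follows from the selection and is no independent support for the calls. The median size of the change was 1.11 on the log2 scale for the genes that rose and 0.83 for those that fell. A change of at least 4-fold was seen in 49 genes that rose and 14 that fell, and of at least 8-fold in 19 and 7. With any 1 of the 6 pools left out 249 to 307 genes were called, and 101 of the genes that rose and 63 of those that fell kept their calls in each of these 6 fits. These fits took the spread from the remaining pools of all 4 cohorts. The same leave-outs from a fit of the 6 pools alone, run after seeing the data, called 833 to 994 genes.

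Called genes were found mostly at low and moderate levels. Of the genes with a mean of 1 to 10 CPM over the 6 pools, 194 of 3997 were called, as were 270 of 5301 with 10 to 100 CPM and 32 of 2325 with 100 to 1000 CPM. Under 1 CPM 14 of 2221 were called. None of the 96 genes at 1000 CPM or more was called by edgeR, with 12 pools or with 6, or by DESeq2 or limma. Of these 96 genes, 27 had an unadjusted p under 0.05 and 14 had an adjusted p of at most 0.05, and 94 lay within 0.5 of no change on the log2 scale. The median standard error of a log2 fold change was 0.34 at 1 to 10 CPM and 0.08 at 1000 CPM or more. By adjusted p alone, without the 1.5-fold criterion, the share passing rose with level. At 1 to 10 CPM 195 of 3997 genes passed, and at 10 to 100 CPM 489 of 5301 did. At 100 to 1000 CPM 241 of 2325 passed, against the 14 of 96 at the highest levels.

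**Figure D1:**
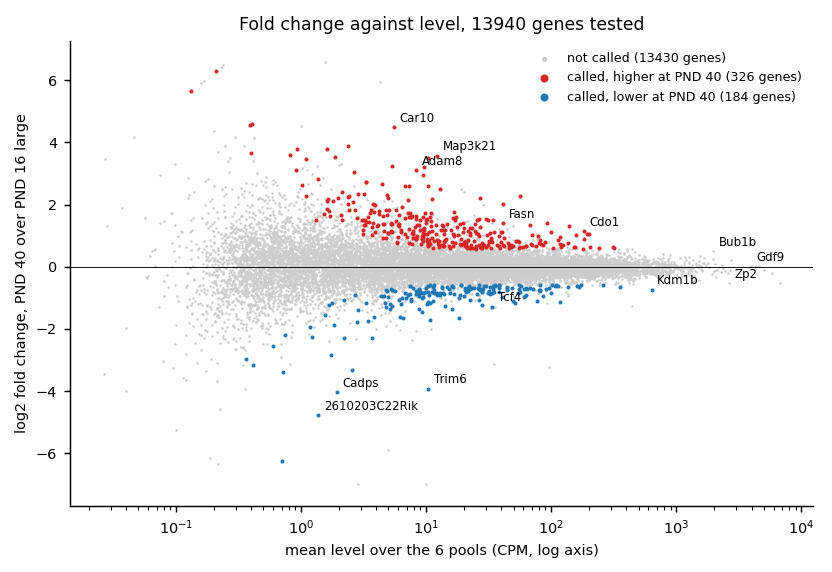
Log2 fold change of PND 40 over PND 16 large (vertical axis) against the mean level over the 6 pools (horizontal axis, CPM, log axis), with 1 point per gene tested. The 326 genes called higher at PND 40 are red, the 184 called lower are blue and the others grey. Changes beyond 7 in either direction are drawn at 7, and no gene with at least 1000 CPM is coloured.

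The transcripts that oocytes hold in the largest amounts differed little between the cohorts. Apart from these, lists of cell cycle, spindle and ribosomal protein genes held no gene called by edgeR with 12 pools. Gdf9, the growth factor by which the oocyte directs its granulosa cells, measured 4003, 3972 and 3861 CPM in PND 16 large and 4007, 4019.7 and 3931 CPM at PND 40. Its levels overlapped between the cohorts (log2 fold change 0.01, standard error 0.08), as did those of its partner Bmp15 (log2 fold change -0.02, standard error 0.08). Of 54 kinases, cyclins and anaphase-promoting complex genes of the meiotic cell cycle none was called by edgeR, although 12 had an unadjusted p under 0.05, and 50 lay within 0.5 of no change on the log2 scale. DESeq2 called none of these with 12 pools and 1 with 6. Of 63 spindle, kinetochore and checkpoint genes edgeR called none, with 11 at an unadjusted p under 0.05, and called 1 when the 6 pools were fitted alone, as did DESeq2. This list does not hold every spindle gene. Wdr62, a spindle pole protein outside the list, was called lower and is described below. Neither the 59 cytosolic nor the 77 mitochondrial ribosomal protein genes held a gene called by edgeR with 12 pools. Of these, 5 and 8 had an unadjusted p under 0.05, and edgeR with the 6 pools alone called 2 and 1, as did DESeq2. The median levels of the cytosolic and mitochondrial lists, 7.17 and 13.2 CPM, were below the 14.5 CPM of all genes tested. They do not speak for abundant transcripts.

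The zona pellucida genes encode the glycoprotein coat that the growing oocyte lays down. Zp2, a component of the coat that sperm bind, measured 3211, 2941 and 3294 CPM in PND 16 large and 2123, 2264 and 2126 CPM at PND 40. All 3 PND 40 pools lay below all 3 PND 16 large pools (log2 fold change -0.54, standard error 0.08, adjusted p = 0.00343), but the change was under 1.5-fold. The same held for Zp3, at 1647 ± 67.5 (PND 16 large) and 1251 ± 14.3 CPM (PND 40) (log2 fold change -0.40, standard error 0.08, adjusted p = 0.0109), and for Zp1, at 1160.4 ± 63.6 (PND 16 large) and 926 ± 21.5 CPM (PND 40) (log2 fold change -0.32, standard error 0.08, adjusted p = 0.024). PND 13 means of the 3 genes, 1268 ± 123.2 for Zp1, 3878 ± 287 for Zp2 and 1820.0 ± 189.7 CPM for Zp3, were above those of PND 16 large. No gene was called by edgeR or DESeq2 among the 20 genes for the zona, sperm binding and cortical granules, while limma with voom weights called 1. The unadjusted p was under 0.05 for 4 of the 20.

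Changes of this small size were also found in the other direction. Bub1b, a kinase-like protein of the spindle checkpoint, measured 1685, 1619.9 and 1603 CPM in PND 16 large and 2177, 2329 and 2395 CPM at PND 40, without overlap (log2 fold change 0.49, standard error 0.08, adjusted p = 0.0041). Mos, which starts the MAP kinase cascade of the maturing oocyte, measured 295, 296 and 273 CPM in PND 16 large and 419, 397 and 379.6 CPM at PND 40, again without overlap (log2 fold change 0.47, standard error 0.09, adjusted p = 0.00736). Btg4, an adapter that brings a deadenylase to stored mRNAs, was at 1108 ± 28.7 (PND 16 large) and 1296 ± 15.2 CPM (PND 40) (log2 fold change 0.23, standard error 0.06, adjusted p = 0.0455). None of these reached 1.5-fold. Bmp15, Mos, Btg4, Zp1 and Zp3 fall outside the rule by which genes were named and were chosen after their values were seen.

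Maternal effect genes (2.44% called), genes for mRNA storage and decay (1.59%) and genes for cohesin, synapsis and recombination (2.22%) each held 1 called gene. The share called of all genes was 3.66%, and no list was tested against it. Kdm1b, a histone H3K4 demethylase needed to set maternal imprints, measured 755, 839 and 795 CPM in PND 16 large and 472, 486 and 469.9 CPM at PND 40. It fell in every pool relative to every PND 16 large pool (log2 fold change -0.74, standard error 0.09, adjusted p = 0.00107), and it was the only one called of 41 maternal effect genes. PND 13 and PND 16 small were higher still, at 1134 ± 5.72 and 1058 ± 171 CPM. Kdm1b (chr13:47043373-47085279) overlaps Dek, and whether reads were counted by strand is not known here. Pabpn1l, an oocyte poly(A)-binding protein, rose from 132, 142 and 118 CPM to 265, 287 and 261 CPM (log2 fold change 1.05, standard error 0.17, adjusted p = 0.00461) and was the only one called of 63 genes for mRNA storage and decay. Both kept their calls without any 1 of the 6 pools. Syce1, a protein of the synaptonemal complex, was the only one called of 45 genes for cohesin, synapsis and recombination. It measured 0.123, 0.355 and 0.359 CPM in PND 16 large and 1.89, 1.79 and 1.54 CPM at PND 40 and lost its call in each fit without 1 pool.

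Among 29 germline transcription factors 4 rose and none fell (13.8% called, compared with 3.66% of all genes), with a median log2 fold change of -0.10 over the 29. This list was assembled after values had been seen. Sohlh2, a basic helix-loop-helix factor of early oocyte growth, measured 2.91, 3.00 and 2.75 CPM in PND 16 large and 8.16, 9.24 and 10.1 CPM at PND 40. The PND 40 pools stood above every PND 16 large pool (log2 fold change 1.67, standard error 0.24, adjusted p = 0.00193), and PND 13 and PND 16 small were near PND 16 large, at 3.90 ± 0.941 and 3.56 ± 0.530 CPM. Its partner Sohlh1 was close to the limit of counting, with 0, 0.0395 and 0.0398 CPM in PND 16 large and 0.343, 0.359 and 1.54 CPM at PND 40, and 4 of the 6 leave-one-out fits lost the call. Trp73, the p53 relative with a part in oocyte survival, rose from 8.39, 4.58 and 7.77 CPM to 12.7, 15.3 and 18.5 CPM, and Tfap2c, a factor of germ cell specification, rose from 20.7, 22.7 and 26.8 CPM to 38.2, 37.3 and 45.2 CPM. Trp73 lost its call in 4 of the 6 leave-one-out fits and Tfap2c in 3.

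The largest changes, among called genes that averaged 1 CPM or more and whose cohorts did not overlap, were in genes of many kinds. Map3k21, a mixed-lineage kinase, rose from 1.39, 2.05 and 2.27 CPM to 19.1, 23.03 and 25.9 CPM (log2 fold change 3.57, standard error 0.44, adjusted p = 0.00103). Adam8 (chr7:139978932-139995207), a membrane metalloprotease, rose from 1.60, 1.93 and 1.63 CPM to 14.2, 15.1 and 15.5 CPM (log2 fold change 3.11, standard error 0.31, adjusted p = 0.000136). PND 13 and PND 16 small means were low for both, at 3.38 ± 0.914 and 3.00 ± 2.09 CPM for Map3k21 and 3.14 ± 1.22 and 1.25 ± 0.369 CPM for Adam8, so that PND 40 alone was high. Grb7 (chr11:98446834-98455373), an adapter of receptor tyrosine kinases, rose from 2.99, 1.62 and 0.438 CPM to 21.2, 19.8 and 16.2 CPM (log2 fold change 3.50, standard error 0.61, adjusted p = 0.00783), and it overlaps Mien1. Gulo (chr14:65986786-66009254), the enzyme of the last step of vitamin C synthesis, rose from 1.68, 1.03 and 2.83 CPM to 20.4, 15.1 and 16.1 CPM (log2 fold change 3.22, standard error 0.51, adjusted p = 0.0046). For Gulo the PND 16 large cohort was the low one, since PND 13 and PND 16 small held 9.17 ± 2.47 and 10.1 ± 7.43 CPM. Sec14l3, of a family of lipid-binding proteins, measured 0.0409, 0.276 and 0.319 CPM in PND 16 large and 2.75, 2.43 and 3.90 CPM at PND 40 (log2 fold change 3.80, standard error 0.75, adjusted p = 0.00978). These 5 genes kept their calls without any 1 of the 6 pools.

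Other genes among the 10 largest increases lost their calls when single pools were left out. Als2cl rose from 0.491, 0.355 and 0.0398 CPM to 3.00, 4.34 and 2.98 CPM and 2 of the 6 leave-one-out fits lost the call. Trim21, a ubiquitin ligase that binds antibody in the cytosol, measured 0.246, 0 and 0.637 CPM in PND 16 large and 7.13, 4.86 and 1.25 CPM at PND 40, and the spread at PND 40 was wide. Its call was lost in 5 of the 6 fits and was not made when the 6 pools were fitted alone. Car10, a carbonic anhydrase-related protein that binds neurexins, measured 0.491, 0.355 and 0.558 CPM in PND 16 large and 11.5, 12.3 and 8.05 CPM at PND 40. The 6 pools were well apart for Car10, but PND 13 and PND 16 small varied widely, at 3.42 ± 2.59 and 5.67 ± 4.93 CPM, and the call was lost in all 6 fits without 1 pool. When the 6 pools were fitted alone edgeR called Car10, with an adjusted p of 4.07e-06. Slc22a22, a solute carrier, measured 0.287, 0.0395 and 0.199 CPM in PND 16 large and 0.858, 2.19 and 2.94 CPM at PND 40 and 5 of these fits lost the call.

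Most of the genes that fell the furthest were at a few CPM in PND 16 large. The unnamed gene 2610203C22Rik measured 3.11, 1.90 and 2.99 CPM in PND 16 large and 0.0429, 0.120 and 0.110 CPM at PND 40 (log2 fold change -4.78, standard error 0.62, adjusted p = 0.00119). Its 3 values at PND 40 stand for 1 to 3 counts each, and the gene overlaps Adhfe1. Cadps, which primes dense core vesicles for release, measured 3.40, 3.28 and 4.22 CPM in PND 16 large and 0.343, 0.279 and 0.0368 CPM at PND 40 (log2 fold change -4.04, standard error 0.79, adjusted p = 0.00977), and PND 16 small was as low as PND 40, at 0.262 ± 0.107 CPM. Pax6, a homeobox factor of eye and brain that overlaps Elp4, fell from 3.68, 2.05 and 3.43 CPM to 0.343, 0.478 and 0.441 CPM (log2 fold change -2.84, standard error 0.37, adjusted p = 0.00115), whereas PND 13 and PND 16 small were near PND 16 large at 2.62 ± 0.268 and 2.81 ± 0.642 CPM. Smoc1, a secreted matricellular protein, fell from 5.53, 4.70 and 3.67 CPM to 0.172, 0.677 and 0.515 CPM (log2 fold change -3.32, standard error 0.64, adjusted p = 0.00942). These 4 genes and Dirc2 (log2 fold change -2.25) kept their calls without any 1 of the 6 pools.

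Trim6, a ubiquitin ligase, fell from 18.8, 19.98 and 19.7 CPM to 0.300, 0.279 and 3.16 CPM. Its PND 40 values were far apart, the call was lost in 5 of the 6 fits without 1 pool, and it was not made when the 6 pools were fitted alone. Rarb, a receptor of retinoic acid, fell from 4.22, 6.28 and 7.77 CPM to 1.20, 1.47 and 1.03 CPM (log2 fold change -2.30, standard error 0.48, adjusted p = 0.0141). PND 16 large was the highest cohort for Rarb, with 2.28 ± 0.460 CPM at PND 13 and 0.994 ± 0.713 CPM in PND 16 small. Krt79, Fhit and Zkscan3 fell by 2.29, 1.93 and 1.88 on the log2 scale, and lost their calls in 3, 5 and 6 of the fits without 1 pool. When the 6 pools were fitted alone edgeR called each of them, with adjusted p of 0.000918, 0.0179 and 0.00225.

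**Figure D2:**
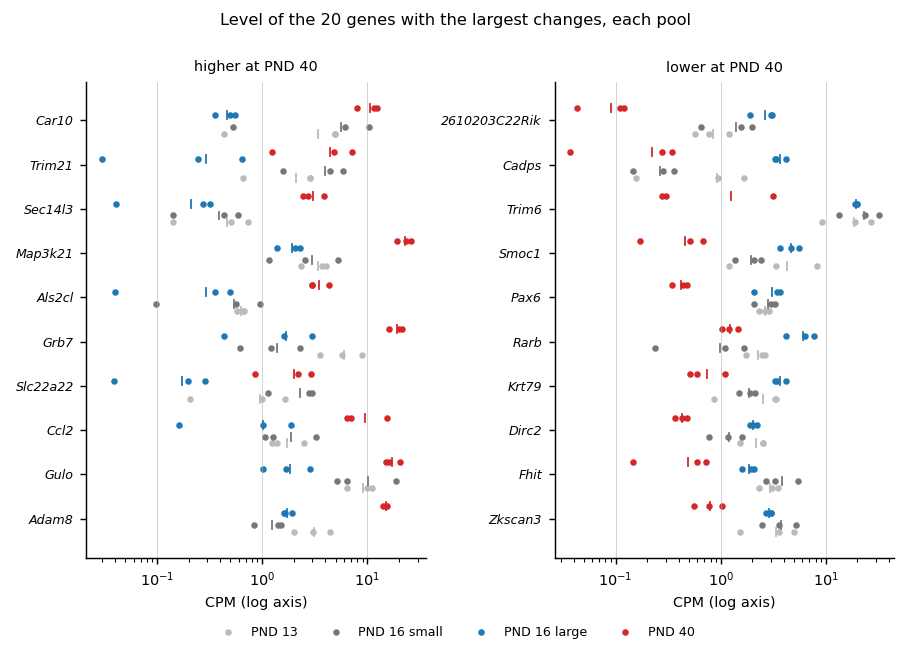
Level (CPM, log axis) in each pool of the 10 genes that rose and the 10 that fell by the largest fold among called genes that averaged 1 CPM or more and did not overlap between PND 16 large (blue) and PND 40 (red). Points are pools, vertical ticks are cohort means, PND 13 and PND 16 small are grey, and a level of 0 is drawn at 0.03 CPM. PND 40 lies above the other 3 cohorts for Map3k21 and Adam8, and PND 16 large below them for Gulo.

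The changes with the smallest p, among called genes with at least 20 CPM, were of moderate size. Fasn, the enzyme that builds palmitate, measured 23.01, 23.3 and 21.6 CPM in PND 16 large and 63.2, 60.8 and 56.1 CPM at PND 40 (log2 fold change 1.41, standard error 0.11, adjusted p = 3.98e-05). PND 13 was near PND 40 at 56.9 ± 2.49 CPM, and PND 16 small lay between at 34.3 ± 4.66 CPM. Cdo1, which oxidizes cysteine on the way to taurine, rose from 104, 132 and 109 CPM to 247, 245 and 267 CPM (log2 fold change 1.14, standard error 0.09, adjusted p = 3.98e-05), and again PND 16 large had the lowest mean of the 4 cohorts. Dcaf5, a substrate receptor of a ubiquitin ligase, rose from 104, 106 and 101 CPM to 213, 217 and 207 CPM (log2 fold change 1.03, standard error 0.10, adjusted p = 0.000125). Angptl2, a secreted angiopoietin-like protein, rose from 13.8, 18.2 and 14.1 CPM to 40.6, 49.8 and 43.2 CPM (log2 fold change 1.54, standard error 0.15, adjusted p = 0.000136), with PND 13 and PND 16 small at the lower level, 18.2 ± 2.81 and 18.5 ± 1.46 CPM. Lrrc4, a synaptic adhesion protein, rose by 1.496 on the log2 scale, the transcription factor Gtf2ird1 by 1.27, the calcium sensor Hpcal1 by 1.11 and the ubiquitin ligase Trim35 by 1.54. Angptl2 overlaps Ralgps1, Lrrc4 lies within Snd1, and Trim35 overlaps 1700001G11Rik.

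On the other side, Wdr62, a protein of the spindle poles, fell from 74.1, 67.2 and 71.4 CPM to 29.8, 33.5 and 32.5 CPM (log2 fold change -1.15, standard error 0.11, adjusted p = 0.000125). Tcf4, a basic helix-loop-helix factor, fell from 46.8, 47.9 and 48.7 CPM to 20.7, 17.5 and 21.0 CPM (log2 fold change -1.28, standard error 0.12, adjusted p = 0.000125). PND 13 and PND 16 small were close to PND 16 large for Wdr62, at 70.1 ± 9.33 and 74.1 ± 5.202 CPM, and were above PND 40 for Tcf4, at 36.1 ± 3.17 and 50.5 ± 7.16 CPM. Pak7, a p21-activated kinase, fell from 103, 105 and 108 CPM to 58.9, 45.7 and 42.5 CPM (log2 fold change -1.11, standard error 0.13, adjusted p = 0.000821), to a level like that of PND 13 at 48.0 ± 7.55 CPM. Ccnk, a cyclin of transcription kinases that overlaps Setd3, fell from 70.0 ± 6.02 to 38.9 ± 3.47 CPM (SD, n = 3 pools). Ugt8a, which makes galactosylceramide, fell by 0.98 on the log2 scale, the ubiquitin ligase Pdzrn3 by 0.81 and the unnamed D030018L15Rik by 0.62. These 7 genes, the 8 that rose and Ptpn18, described with the phosphatases, kept their calls without any 1 of the 6 pools.

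Among the called genes with the highest levels, Rcc2, a regulator of chromosome condensation, fell from 431 ± 3.79 to 275 ± 6.05 CPM, but lost its call in each fit without 1 pool. The membrane trafficking gene Scamp1 and the actin bundler Pls1 fell by 0.59 and 0.59 on the log2 scale, and Dclk1, a microtubule-associated kinase, by 0.66. Ctnnd1, the catenin p120 that stabilizes cadherins at contacts, rose from 228, 279 and 236 CPM to 391, 376 and 379.8 CPM (log2 fold change 0.62, standard error 0.11, adjusted p = 0.00523). Atl2, which fuses endoplasmic reticulum tubules, Trio, a guanine nucleotide exchange factor, and Trp53bp1, a DNA damage response protein, rose by 0.59, 0.61 and 0.63, and Atl2 was not called when the 6 pools were fitted alone. Trp53bp1 lost its call in each fit without 1 pool.

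Genes for signals between cells and for cell contacts formed several of the lists examined. Of 68 guidance ligands and receptors, which steer axons and act as short-range cues elsewhere, 4 rose and 4 fell (11.8% called, compared with 3.66% of all genes), and their median log2 fold change was 0.03. Flrt1, a membrane protein that binds latrophilins and Unc5 receptors, measured 3.32, 3.44 and 2.07 CPM in PND 16 large and 20.1, 16.3 and 17.3 CPM at PND 40 (log2 fold change 2.61, standard error 0.35, adjusted p = 0.00141). It lies within Macrod1, and the reads of the genes may not be separable. Efna1, an ephrin ligand, rose from 1.84, 1.22 and 1.83 CPM to 10.001, 5.70 and 8.46 CPM (log2 fold change 2.30, standard error 0.41, adjusted p = 0.00602). Efna4 and the semaphorin Sema4c rose by 1.06 and 0.63 on the log2 scale. Of the ephrin receptors, Epha7 fell from 34.6, 22.3 and 25.9 CPM to 9.14, 7.57 and 9.63 CPM (log2 fold change -1.65, standard error 0.31, adjusted p = 0.00933) and Epha10 fell from 35.6 ± 4.03 to 21.9 ± 3.28 CPM. The secreted repellents Slit2 and Sema3a fell by 1.20 and 0.88. Flrt1, Efna1, Epha7 and Epha10 kept their calls without any 1 of the 6 pools, and the other 4 genes lost them in 3 to 6 of the fits.

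Of 46 Wnt, Hedgehog and Notch genes 4 rose (8.70%, compared with 3.66% called of all genes) and none fell, with a median log2 fold change of -0.04. Wnt7a, a ligand, rose from 1.06, 0.750 and 1.20 CPM to 4.51, 3.71 and 4.49 CPM (log2 fold change 2.07, standard error 0.37, adjusted p = 0.00621), but PND 13 already had 3.72 ± 0.600 CPM. Notch1, a receptor, rose from 6.75, 6.199 and 4.66 CPM to 15.9, 11.5 and 12.8 CPM (log2 fold change 1.19, standard error 0.26, adjusted p = 0.0176), and Hey1, a target gene of Notch receptors, rose from 10.3, 9.71 and 8.72 CPM to 25.8, 19.7 and 20.2 CPM (log2 fold change 1.19, standard error 0.17, adjusted p = 0.00204). PND 40 had the highest mean of the 4 cohorts for both. Notch1 lost its call in 4 of the 6 leave-one-out fits, while Hey1 kept its call in each. Gli2, a transcription factor of the Hedgehog pathway, rose from 1.02, 2.53 and 2.39 CPM to 5.19, 5.58 and 8.60 CPM and lost its call in each fit without 1 pool. Jag1, the Notch ligand with the highest level in the list, was not called, at 2156 ± 69.2 (PND 16 large) and 2017 ± 53.1 CPM (PND 40) (log2 fold change -0.10, standard error 0.06).

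Among 73 growth factors and receptor tyrosine kinases 2 rose and 1 fell (4.11% called, near the 3.66% of all genes). Bmp7, a bone morphogenetic protein, rose from 0.450, 0.632 and 0.598 CPM to 6.57, 3.98 and 3.57 CPM (log2 fold change 3.06, standard error 0.54, adjusted p = 0.00602) and kept its call without any 1 of the 6 pools. Igfbp3, a binding protein of insulin-like growth factors, rose from 0.678 ± 0.308 to 1.94 ± 0.599 CPM, and Fgf16 fell from 2.34 ± 0.547 to 0.791 ± 0.208 CPM. Of 28 oocyte-secreted factors and their receptors only the receptor Acvr1 was called, with a rise of 1.07 on the log2 scale that each fit without 1 pool lost. Of 43 genes for gap junctions and oocyte-cumulus contacts 3 rose (6.98%). They were Ctnnd1, the claudin Cldn15, which rose from 4.79, 4.94 and 6.45 CPM to 14.0, 19.6 and 15.04 CPM (log2 fold change 1.59, standard error 0.24, adjusted p = 0.00247), and the adhesion protein Nectin2, which rose from 2.66, 2.69 and 2.15 CPM to 5.45, 7.49 and 6.55 CPM (log2 fold change 1.38, standard error 0.26, adjusted p = 0.00814). Gja4, the connexin with which mouse oocytes are coupled to their cumulus cells, was not called, at 512 ± 21.5 (PND 16 large) and 560.0 ± 31.3 CPM (PND 40), and it was chosen after its values were seen. Of 43 cadherins and protocadherins (6.98% called) Clstn1 rose by 0.67 and Cdh8 and Pcdh10 fell by 1.35 and 0.77 on the log2 scale. Of 130 integrin and extracellular matrix genes the laminin subunit Lamc1 alone was called, and its PND 40 pools, at 282, 189 and 126 CPM against 75.2, 81.3 and 82.9 CPM in PND 16 large, were spread widely. Its call was lost in 5 of the 6 fits without 1 pool and was not made when the 6 pools were fitted alone.

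Ion channels showed 6 rises and 3 falls among 142 genes (6.34%, compared with 3.66% of all genes). Kcnh2, a potassium channel, rose from 10.8, 11.5 and 13.5 CPM to 25.02, 25.5 and 22.2 CPM (log2 fold change 1.02, standard error 0.19, adjusted p = 0.00736). Tmc3, of a family with mechanosensory channels, fell from 24.3, 19.3 and 25.9 CPM to 7.25, 8.49 and 11.4 CPM (log2 fold change -1.35, standard error 0.20, adjusted p = 0.00247), and PND 13 and PND 16 small were higher still, at 33.4 ± 6.62 and 38.8 ± 6.83 CPM. The potassium channels Kcnn2, Kcnd3 and Kcnma1 rose by 0.91, 1.82 and 0.67 on the log2 scale and the pacemaker channel Hcn2 by 1.67, whereas Kcna1 and the cation channel Trpc4 fell by 1.11 and 0.69. Cacng7, a channel subunit, rose by 2.19. Only Kcnh2 and Tmc3 of the 9 kept their calls without any 1 of the 6 pools.

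Among 91 neurotransmitter receptor and synaptic organizer genes 3 rose and 2 fell (5.49% called, compared with 3.66% of all genes). Grm2, a metabotropic glutamate receptor, rose from 16.5, 16.3 and 13.7 CPM to 30.5, 32.7 and 38.9 CPM (log2 fold change 1.13, standard error 0.16, adjusted p = 0.00192), and its mean was lower at PND 13 (12.6 ± 2.43 CPM) and in PND 16 small (6.51 ± 0.473 CPM) than in PND 16 large. Of the neuroligins, adhesion proteins of synapses, Nlgn3 rose by 0.68 and Nlgn1 fell by 0.90 on the log2 scale, and each fit without 1 pool lost both calls. Both were called by edgeR when the 6 pools were fitted alone, with adjusted p of 0.00927 for Nlgn3 and 6.55e-05 for Nlgn1. In regulated exocytosis and dense core granules 4 of 84 genes rose and 2 fell (7.14%). Stxbp6, which binds SNARE proteins, fell from 129, 117 and 134 CPM to 71.8, 76.8 and 65.3 CPM (log2 fold change -0.83, standard error 0.12, adjusted p = 0.00218). Ica1l rose from 16.8, 21.0 and 19.2 CPM to 142, 90.6 and 45.3 CPM (log2 fold change 2.29, standard error 0.32, adjusted p = 0.00344), with a wide spread at PND 40, and PND 13 was at 87.6 ± 5.40 CPM. Cplx2, a complexin, and Snap91, a clathrin adapter, rose by 1.38 and 0.61, and Cadps was the other gene that fell.

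**Figure D3:**
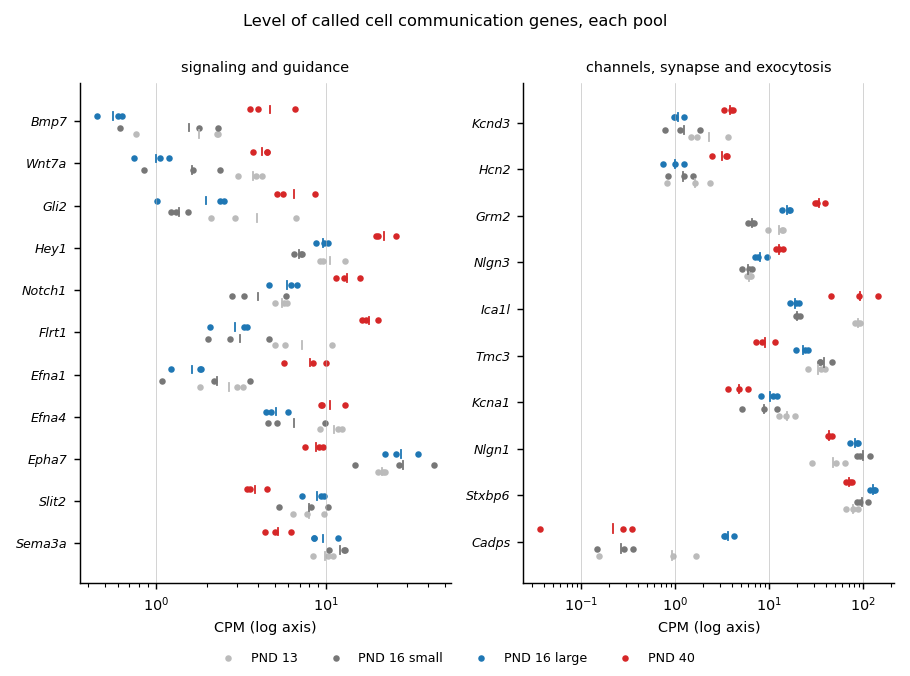
Level (CPM, log axis) in each pool of called genes for signaling and guidance (left) and for channels, synapses and exocytosis (right). Points are pools and vertical ticks cohort means, with PND 16 large in blue, PND 40 in red, and PND 13 and PND 16 small in grey. Cadps is low at PND 40 and in PND 16 small, and Ica1l is near PND 40 levels at PND 13.

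The kappa B factors are transcription factors that are held in the cytoplasm by inhibitors until a receptor signal releases them. The list of 43 genes of this pathway was assembled after values had been seen. Of these genes 5 rose and 1 fell (14.0% called, compared with 3.66% of all genes), with a median log2 fold change of -0.02. The 250 bases before the transcript start are shown for the 2 called genes whose windows hold a match to the kappa B consensus, which is in capitals. Sequences and positions are those of RefSeq on GRCm38.p6, read 5′ to 3′ on the strand of the gene. The window of Nfkb2 is chr19:46304487-46304736 (plus strand), the first of 3 windows listed for its transcripts, and that of Nfkbia is chr12:55492648-55492897 (minus strand).
Nfkb2: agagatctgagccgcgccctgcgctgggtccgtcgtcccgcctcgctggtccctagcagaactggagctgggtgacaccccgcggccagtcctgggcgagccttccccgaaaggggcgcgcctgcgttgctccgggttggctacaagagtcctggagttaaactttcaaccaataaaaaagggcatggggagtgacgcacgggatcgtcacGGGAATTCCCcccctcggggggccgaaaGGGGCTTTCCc
Nfkbia: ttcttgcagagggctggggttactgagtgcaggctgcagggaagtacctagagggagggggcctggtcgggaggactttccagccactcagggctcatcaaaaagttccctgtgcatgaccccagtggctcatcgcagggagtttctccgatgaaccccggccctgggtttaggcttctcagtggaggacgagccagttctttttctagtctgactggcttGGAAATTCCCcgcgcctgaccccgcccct
In Nfkb2 the matches begin 39 and 11 bases before the start, and in Nfkbia the match begins 29 bases before it. Of the other windows of Nfkb2 1 has no match and 1 has a match that begins 225 bases before its start. The consensus was searched on both strands and is found in 1643 of 32851 such windows of all genes (5.001%). Windows were at hand for 4 of the 6 called genes, and none matched for Rnf31 and Nkiras2. A match is a description of letters and not evidence of a bound factor.

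Nfkb1, which encodes the p105 precursor and the p50 subunit, measured 10.4, 14.4 and 15.2 CPM in PND 16 large and 27.6, 29.3 and 32.6 CPM at PND 40 (log2 fold change 1.16, standard error 0.20, adjusted p = 0.0046). Nfkb2, which encodes the p100 precursor and the p52 subunit, rose from 8.92, 7.31 and 7.13 CPM to 15.8, 11.8 and 12.6 CPM (log2 fold change 0.79, standard error 0.21, adjusted p = 0.0433). Nfkbia, the inhibitor that holds the factors in the cytoplasm and is itself one of their target genes, rose from 14.5, 16.1 and 13.8 CPM to 26.9, 23.7 and 27.1 CPM (log2 fold change 0.81, standard error 0.15, adjusted p = 0.00762). Cohorts did not overlap for these 3 genes, and PND 13 and PND 16 small means lay between them, at 21.3 ± 2.80 and 20.6 ± 5.41 CPM for Nfkb1. Rnf31, the catalytic subunit of the linear ubiquitin ligase that activates the pathway, rose from 5.98, 5.73 and 5.42 CPM to 12.5, 14.0 and 14.4 CPM (log2 fold change 1.26, standard error 0.17, adjusted p = 0.00134). Nkiras2, a small GTPase-like protein that binds the inhibitors, fell from 14.0, 14.6 and 16.4 CPM to 8.03, 9.09 and 7.87 CPM (log2 fold change -0.85, standard error 0.19, adjusted p = 0.0174). Ccl2, a chemokine and a target gene, measured 0.164, 1.03 and 1.87 CPM in PND 16 large and 6.44, 7.01 and 15.3 CPM at PND 40 (log2 fold change 3.22, standard error 0.70, adjusted p = 0.0197). Nfkb1, Nfkbia and Rnf31 kept their calls without any 1 of the 6 pools, and Nfkb2 lost its call in each of these fits. Nfkb2 overlaps Psd and Nkiras2 overlaps Dnajc7. Birc3, the gene of the list with the highest level, was not called, at 521 ± 14.2 (PND 16 large) and 589 ± 13.4 CPM (PND 40). Nfkb2 and Nfkbia are among genes chosen after their values were seen.

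Of 58 interferon response and nucleic acid sensing genes 3 rose and none fell (5.17%, compared with 3.66% of all genes). Tlr3, a sensor of double-stranded RNA, rose from 5.16, 3.71 and 5.26 CPM to 13.4, 10.3 and 10.7 CPM (log2 fold change 1.28, standard error 0.23, adjusted p = 0.00665), and Tlr9, a sensor of DNA, rose from 14.3, 11.1 and 14.7 CPM to 27.2, 24.7 and 22.98 CPM (log2 fold change 0.90, standard error 0.18, adjusted p = 0.00977), with Trim21 as the other gene. Of 97 complement, cytokine and antigen presentation genes 5 rose and 2 fell (7.22%). The chemokine receptors Cxcr4 and Cxcr3 rose from 1.47, 1.93 and 2.91 CPM to 7.51, 6.06 and 8.94 CPM and from 11.8, 9.95 and 10.2 CPM to 29.4, 25.9 and 30.0 CPM, and lost their calls in 4 and 6 of the fits without 1 pool. Tnfrsf19, of the tumor necrosis factor receptor family, rose from 4.87, 4.74 and 4.42 CPM to 16.1, 11.2 and 15.7 CPM (log2 fold change 1.61, standard error 0.32, adjusted p = 0.0106), and Il12rb2, a cytokine receptor chain, rose by 0.74 on the log2 scale. Il1rap, the co-receptor of interleukin 1, fell from 26.2, 27.4 and 26.8 CPM to 16.9, 17.9 and 17.6 CPM (log2 fold change -0.62, standard error 0.11, adjusted p = 0.006), and Btn2a2, a butyrophilin, fell from 18.2, 13.0 and 18.2 CPM to 3.18, 7.49 and 4.34 CPM (log2 fold change -1.72, standard error 0.34, adjusted p = 0.00986). The summed blood, immune and endothelial markers, which overlapped between the cohorts, were mostly Pecam1. The part of other cells in these values was not tested.

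Protein tyrosine phosphatases, which remove the phosphates that receptor kinases add, had the highest share of calls, but their list was assembled after values had been seen. Of 55 genes 6 rose and 5 fell (20% called, compared with 3.66% of all genes), with a median log2 fold change of -0.01. Ptpn3, a cytoplasmic phosphatase, rose from 5.199, 3.08 and 3.82 CPM to 19.8, 15.5 and 19.8 CPM (log2 fold change 2.19, standard error 0.21, adjusted p = 0.000125). Ptpn6, known as SHP-1, rose from 3.15, 3.71 and 3.51 CPM to 11.6, 10.3 and 12.3 CPM (log2 fold change 1.72, standard error 0.31, adjusted p = 0.00643). Ptpn13 and the receptor type Ptpre rose from 25.2 ± 3.28 to 54.8 ± 3.44 CPM and from 20.6 ± 3.85 to 44.0 ± 6.56 CPM, and Ptprv and Ptpra rose by 1.25 and 0.60 on the log2 scale. Ptpn18 fell from 72.7, 89.4 and 82.5 CPM to 41.5, 43.4 and 42.0 CPM (log2 fold change -0.95, standard error 0.12, adjusted p = 0.000867), and its PND 13 and PND 16 small means were higher, at 111 ± 13.5 and 108 ± 14.9 CPM. Dusp16, a phosphatase of MAP kinases, fell from 137 ± 24.0 to 88.5 ± 8.45 CPM, with 186 ± 4.93 CPM at PND 13 and 232 ± 12.5 CPM in PND 16 small. The receptor types Ptprd and Ptpru fell by 1.10 and 0.72 and Dusp5 by 2.18. Ptpn3, Ptpn6, Ptpn13, Ptpre and Ptpn18 kept their calls without any 1 of the 6 pools.

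Chaperones fold new proteins and refold damaged ones, and many are induced by heat shock factors. Of 121 proteasome and chaperone genes 6 rose and none fell. The share called, 4.96%, was near the 3.66% of all genes. The 6 were all chaperones or their partners. Chaperones and proteasome genes of this list were not counted apart, and a difference between them in the share called was not tested. The 250 bases before the start are shown for the 2 called genes whose windows hold a match to the heat shock element, searched as GAANNTTC or TTCNNGAA on both strands and drawn in capitals. The window of Hspa1b is chr17:34959239-34959488 (minus strand) and that of Hspb1 is chr5:135887669-135887918 (plus strand), again from RefSeq on GRCm38.p6.
Hspa1b: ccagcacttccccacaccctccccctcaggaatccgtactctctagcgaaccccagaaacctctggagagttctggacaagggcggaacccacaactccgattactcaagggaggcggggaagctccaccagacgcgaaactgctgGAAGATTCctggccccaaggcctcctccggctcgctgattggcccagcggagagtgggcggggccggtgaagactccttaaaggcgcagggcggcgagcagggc
Hspb1: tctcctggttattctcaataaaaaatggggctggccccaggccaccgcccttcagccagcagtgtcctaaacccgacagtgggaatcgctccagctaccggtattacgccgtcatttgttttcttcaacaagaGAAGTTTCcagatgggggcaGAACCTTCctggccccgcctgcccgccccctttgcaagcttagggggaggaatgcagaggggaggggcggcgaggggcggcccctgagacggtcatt
The match of Hspa1b begins 104 bases before the start, and those of Hspb1 begin 117 and 97 bases before it. The element is found in 4218 of the 32851 windows of all genes (12.8%), and none of the windows of the other 4 called chaperones held it.

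Hspa1b, an inducible member of the 70 kDa heat shock family, measured 1.11, 0.671 and 0.717 CPM in PND 16 large and 3.73, 5.66 and 2.68 CPM at PND 40 (log2 fold change 2.27, standard error 0.49, adjusted p = 0.0156). Its near-identical copy Hspa1a, at 1.35, 0.395 and 0.279 CPM in PND 16 large and 1.42, 2.39 and 2.28 CPM at PND 40, was not called (log2 fold change 1.58, standard error 0.70). How reads that match both copies were counted is not known here. Hspb1, a small heat shock protein, rose from 0.901, 0.592 and 0.757 CPM to 1.42, 3.11 and 3.27 CPM (log2 fold change 1.79, standard error 0.48, adjusted p = 0.0406). Dnajb1, the best measured of the 6, rose from 81.2, 93.5 and 90.4 CPM to 147, 155 and 136 CPM (log2 fold change 0.72, standard error 0.16, adjusted p = 0.021). Dnajb2, Hspa12a and Dnajc15 rose by 0.79, 0.81 and 0.92 on the log2 scale. Each of the 6 lost its call in 3 or more of the fits without 1 pool. Hsf1, the main heat shock factor, was at 66.5, 67.6 and 60.9 CPM in PND 16 large and 97.7, 96.7 and 87.8 CPM at PND 40 and under 1.5-fold (log2 fold change 0.53, standard error 0.10, adjusted p = 0.00679), and the constitutive chaperone Hspa8 overlapped, at 19.1 ± 1.98 (PND 16 large) and 22.2 ± 1.72 CPM (PND 40). Hsf1, Hspa1a and Hspa8 were chosen after their values were seen.

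Of 50 genes of cholesterol and lipid metabolism 3 rose and none fell (6% called, compared with 3.66% of all genes). Beside Fasn these were Cyp51, an enzyme of cholesterol synthesis, which rose from 0.901, 2.05 and 1.51 CPM to 4.76, 7.01 and 6.398 CPM (log2 fold change 2.02, standard error 0.34, adjusted p = 0.00437), and the lipase Lpl, which rose from 23.7 ± 3.11 to 36.7 ± 4.27 CPM and lost its call in each fit without 1 pool. PND 13 and PND 16 small were near PND 40 for Cyp51, at 4.45 ± 1.33 and 5.38 ± 1.28 CPM. Hmgcs1, the gene of the list with the highest level, overlapped between the cohorts (log2 fold change 0.09, standard error 0.16). Of 113 genes for antioxidants, metals and detoxification 6 rose and 1, Ugt8a, fell (6.19%). Sult4a1, of the sulfotransferase family, rose from 8.19, 8.53 and 7.65 CPM to 21.1, 22.6 and 20.2 CPM (log2 fold change 1.39, standard error 0.20, adjusted p = 0.00204), and Cyp2j12 and Cyp27a1, cytochromes P450, rose from 3.60, 3.44 and 4.22 CPM to 12.5, 11.6 and 10.4 CPM and from 2.95, 2.65 and 3.27 CPM to 8.50, 7.77 and 6.62 CPM. Keap1, the sensor of oxidative stress, rose by 0.84 on the log2 scale but lost its call in each fit without 1 pool. Of 50 genes of glycolysis and the tricarboxylic acid cycle only Tpi1, an enzyme of glycolysis, was called, with a rise of 0.60, and of 76 nuclear genes of oxidative phosphorylation Uqcrc1 and Cox4i2 fell by 0.80 and 2.56. Uqcrc1 lost its call in each fit without 1 pool, and Tpi1 and Cox4i2 lost theirs in 5 of the 6.

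**Figure D4:**
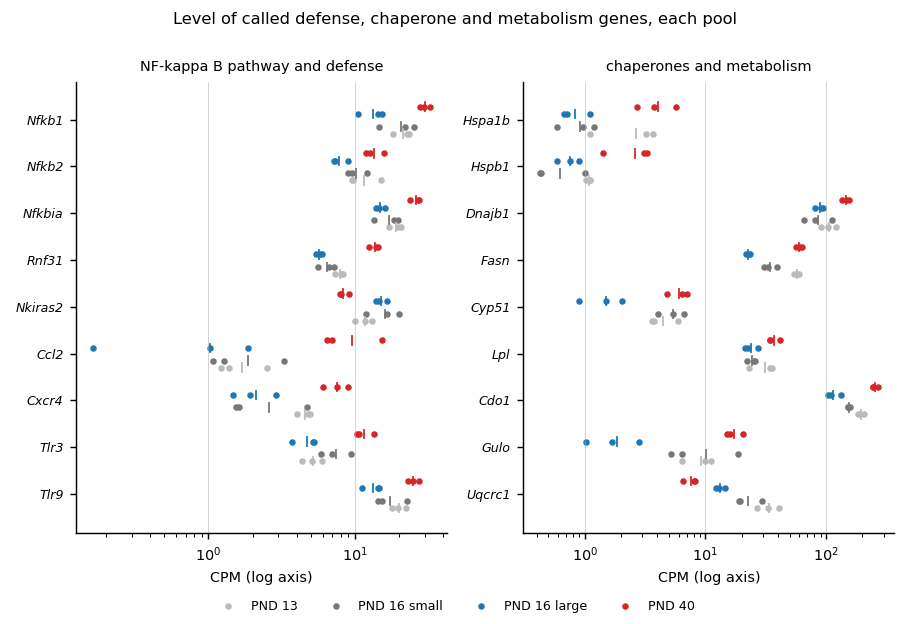
Level (CPM, log axis) in each pool of 9 called genes of the NF-kappa B pathway and defense (left) and of 9 called chaperone and metabolism genes (right). Points are pools and vertical ticks cohort means, with PND 16 large in blue, PND 40 in red, and PND 13 and PND 16 small in grey. Nkiras2 and Uqcrc1 are lower at PND 40 and the other 16 genes higher.

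Transporters move metabolites across membranes, and of 250 solute carriers 11 rose and 2 fell (5.2% called, compared with 3.66% of all genes). Slco4a1, an organic anion transporter, rose from 5.69, 4.94 and 5.02 CPM to 15.2, 12.8 and 16.7 CPM (log2 fold change 1.51, standard error 0.21, adjusted p = 0.00158), and Slc29a3, a nucleoside transporter, rose from 5.08, 4.66 and 4.42 CPM to 12.7, 13.4 and 10.2 CPM (log2 fold change 1.36, standard error 0.25, adjusted p = 0.00684). Slc16a12, of the monocarboxylate transporter family, rose from 4.95, 5.57 and 3.07 CPM to 13.9, 14.6 and 16.5 CPM, and Slc1a1, a glutamate transporter, rose from 0.573, 1.70 and 0.837 CPM to 7.04, 3.39 and 5.44 CPM. Slc16a12 and Slc1a1 each lost the call in 4 of the 6 fits without 1 pool. For Slco4a1 and Slc16a12 PND 13 and PND 16 small were below PND 16 large, at 3.44 ± 0.363 and 2.86 ± 0.604 CPM for Slco4a1 and 1.69 ± 1.15 and 2.26 ± 0.609 CPM for Slc16a12. The mitochondrial carriers Slc25a35, Slc25a23 and Slc25a22 rose by 0.79, 0.78 and 0.67 on the log2 scale, and Slc25a22 lost its call in each fit without 1 pool. Slc6a4, the serotonin transporter, fell from 24.0, 26.1 and 26.0 CPM to 15.4, 14.8 and 17.0 CPM (log2 fold change -0.69, standard error 0.12, adjusted p = 0.00616), and Slc45a4 fell by 0.61. Of 70 ABC transporters and pumps 2 rose and none fell (2.86%), among them Atp2c2, a calcium and manganese pump, which rose from 96.1, 109.5 and 97.5 CPM to 177, 164 and 179 CPM (log2 fold change 0.78, standard error 0.15, adjusted p = 0.00979).

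Meiotic arrest is held by cyclic AMP, and of 56 genes around it 1 rose and 1 fell (3.57% called, near the 3.66% of all genes). Pde2a, a phosphodiesterase, rose from 0.778, 0.987 and 0.677 CPM to 3.69, 3.31 and 4.67 CPM (log2 fold change 2.25, standard error 0.46, adjusted p = 0.0117), and Adcy2, an adenylyl cyclase, fell from 6.84, 6.87 and 5.74 CPM to 3.52, 1.59 and 3.46 CPM (log2 fold change -1.18, standard error 0.33, adjusted p = 0.049), a call lost in each fit without 1 pool. Pde2a lost its call in 3 of these fits. Of 62 genes of the PI3K, mTOR and Hippo pathways, Inpp5d, a phosphatase of phosphoinositides, fell from 45.1, 41.8 and 41.8 CPM to 23.2, 23.8 and 25.3 CPM (log2 fold change -0.83, standard error 0.13, adjusted p = 0.00382), and Tead3 and Wwc1, both of the Hippo pathway, rose by 1.62 and 0.71 but lost their calls in each fit without 1 pool. When the 6 pools were fitted alone edgeR called Tead3 and Wwc1, with adjusted p of 0.000427 and 0.00106. Of 116 G protein-coupled receptors and G proteins Gna14, a G protein subunit, fell by 0.67 and Gpr137 rose by 0.59. Gpr137 overlaps Bad and lost its call in each fit without 1 pool, and with DESeq2, voom weights, RLE scaling and the replicate block.

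In the lists of nuclear, protein turnover and cytoskeleton genes the shares called, 2.33% to 4.84%, were near the 3.66% of all genes. Of 370 zinc finger genes 8 rose and 7 fell, among them Zfp90, which rose from 10.9 ± 1.82 to 22.4 ± 2.34 CPM, and Zfp523, which fell from 15.5, 15.1 and 17.2 CPM to 7.55, 8.33 and 9.63 CPM (log2 fold change -0.90, standard error 0.15, adjusted p = 0.0046). Of 129 chromatin-modifying enzymes Prmt5, an arginine methyltransferase, rose from 7.70 ± 0.323 to 16.1 ± 1.66 CPM, and Sirt5, a deacylase, fell from 29.7 ± 2.34 to 18.5 ± 2.03 CPM alongside Kdm1b. Prmt5 lost its call in each fit without 1 pool. Of 46 replication-dependent histones Hist1h3e and Hist3h2a fell by 0.85 and 0.79. Of 290 TRIM, F-box and other ubiquitin ligases 6 rose and 2 fell, among them Fbxl8, which rose from 1.68, 1.74 and 2.23 CPM to 6.82, 6.42 and 6.47 CPM (log2 fold change 1.80, standard error 0.31, adjusted p = 0.00466), and Nedd4, which rose from 62.9 ± 6.58 to 136 ± 11.4 CPM. Of 124 kinesins, dyneins, myosins and actin nucleators 3 rose and 3 fell. Kif26a, a kinesin, rose from 19.2, 11.5 and 16.9 CPM to 40.5, 33.2 and 28.3 CPM and Myo19, a myosin of mitochondria, fell from 70.0, 86.1 and 91.8 CPM to 52.5, 58.9 and 43.6 CPM. Actb, the cytoplasmic beta actin, fell from 116, 117 and 118 CPM to 76.1, 76.8 and 66.7 CPM (log2 fold change -0.68, standard error 0.11, adjusted p = 0.00437), a gene chosen after its values were seen. Of 811 unnamed predicted and RIKEN genes 16 rose and 11 fell (3.33%).

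**Figure D5:**
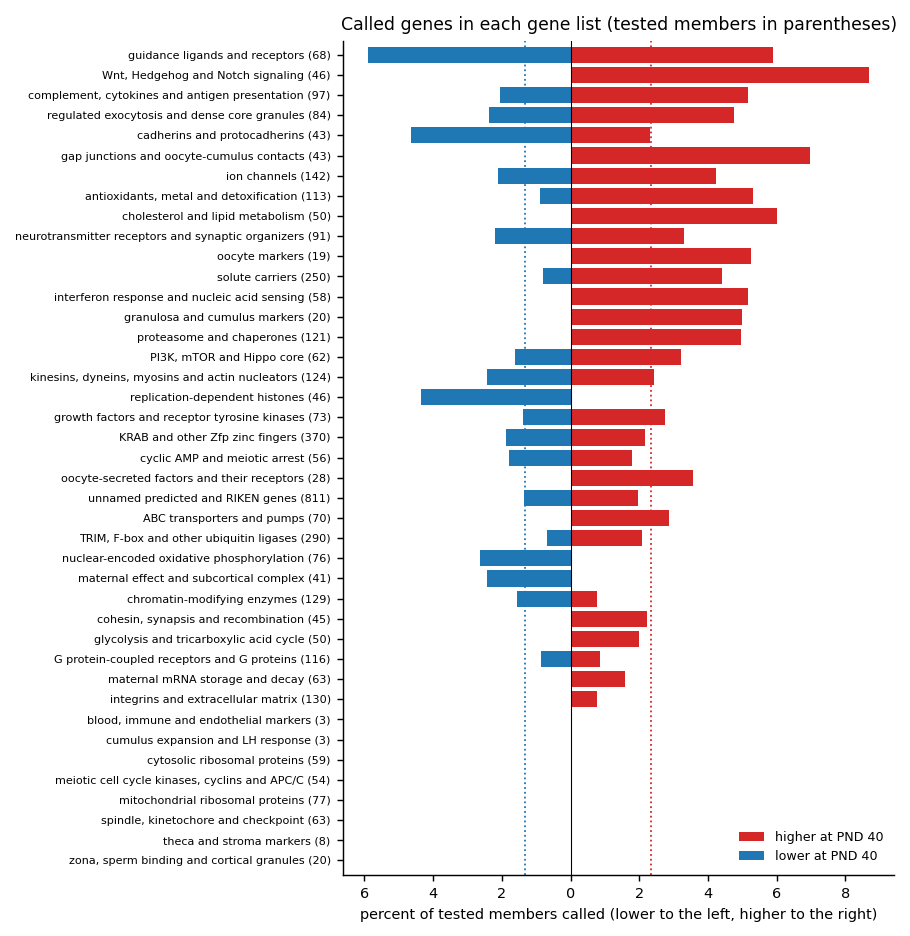
Share of the tested members of 41 gene lists (percent, horizontal axis) that were called lower at PND 40 (blue, to the left) or higher (red, to the right), with the number of tested members in parentheses. Dotted lines mark the shares among all genes tested, 1.32% lower and 2.34% higher. At least 1 gene was called in 33 of the 41 lists.

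Genes of granulosa cells moved in part with the cohorts. Of the 20 granulosa and cumulus markers 1 was called, Cyp11a1, the enzyme of the first step of steroid synthesis, which rose from 1.64, 2.72 and 1.83 CPM to 5.79, 5.06 and 5.48 CPM (log2 fold change 1.40, standard error 0.29, adjusted p = 0.0124). Esr2 and Nr5a2, the markers with the highest levels, were not called, at 135 ± 4.14 (PND 16 large) and 144 ± 3.70 CPM (PND 40) for Esr2 and at 93.5 ± 3.66 (PND 16 large) and 91.2 ± 2.50 CPM (PND 40) for Nr5a2. Gja1, the connexin of granulosa cells, measured 26.0, 35.0 and 26.6 CPM in PND 16 large and 15.3, 18.9 and 13.6 CPM at PND 40, and Inha, the inhibin alpha subunit, measured 20.2, 20.7 and 19.7 CPM in PND 16 large and 11.4, 13.2 and 11.7 CPM at PND 40. Neither Gja1 (log2 fold change -0.87, standard error 1.44) nor Inha (log2 fold change -0.74, standard error 1.36) was called. Pools did not overlap for these genes or for Kitl, the ligand of Kit, at 19.9, 16.9 and 24.6 CPM in PND 16 large and 12.1, 15.02 and 10.8 CPM at PND 40. Gja1, Inha and Kitl were chosen after their values were seen. All 3 were called lower when the 6 pools were fitted alone, with adjusted p of 0.00246 for Gja1, 0.00112 for Inha and 0.0128 for Kitl. In that fit 3 of the 20 markers were also called higher, Cyp11a1, Inhba, the inhibin beta A subunit, at 1.15, 1.07 and 2.03 CPM in PND 16 large and 4.46, 4.30 and 4.01 CPM at PND 40, and Grem1, a secreted antagonist of bone morphogenetic proteins, at 0.246, 0.553 and 0.279 CPM in PND 16 large and 3.78, 2.11 and 1.95 CPM at PND 40. Neither Inhba nor Grem1 was called with 12 pools, and both were chosen after their values were seen. The part of such cells in the other differences was not tested.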

How the data were processed

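RNA from pools of 18 to 45 oocytes was depleted of ribosomal RNA and made into directional libraries, and 12 pools in 4 cohorts of 3 were sequenced. The authors deposited a table of counts of reads per gene and a separate table of log2 values, which were used only in 1 alternative. The submitters' processing notes name FastQC, STAR, HTSeq, DESeq2, DESeq, HOMER and mm10. Their versions and the strand setting of the counting are not given in the sources used here, so reads of overlapping genes may have been shared or lost. The study's text says that the oocytes of each cohort came from 3 mice and were made into 3 independent pools. Whether each pool came from 1 mouse is not stated there, so p-values may measure only the spread between pools.

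Of 24562 entries, 5 repeats with identical counts were left out, and 13940 of 24557 genes passed edgeR's filterByExpr (minimum count 10). Counts were scaled by the trimmed mean of M-values (factors 0.955 to 1.07) and fitted with edgeR 4.0.16 (robust quasi-likelihood, R 4.3.3) over all 12 pools with the 4 cohorts as groups. Genes were called at a Benjamini-Hochberg adjusted p of 0.05 or less with a change of 1.5-fold or more. Standard errors were taken as the absolute log2 fold change over the square root of F. The common biological coefficient of variation was 0.247 with 12 pools and 0.148 with the 6 compared. The procedure was also run on simulated counts with the same spread for a gene in all cohorts. The real cohorts differed in spread, so that run cannot show how reliable the calls are here. Python 3.11.15, pandas 2.3.3, scipy 1.17.1 and matplotlib 3.10.9 were used for summaries, exact permutation tests and plots.

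Named genes were the 10 largest changes in each direction among called genes averaging 1 CPM or more without overlap, the 8 smallest p in each direction among those with at least 20 CPM, up to 3 called members per list and direction with the most abundant member, and the 5 called genes with the highest level in each direction. Any other called member of a list that is named was chosen after its values were seen. The comparison and the lists were chosen with earlier results of these data known, and the NF-kappa B, phosphatase and germline factor lists were added after values were seen. Positions came from RefSeq (GRCm38.p6), matched by gene ID for 13657 genes and by symbol for 266. Alternatives were the 6 pools alone, DESeq2 1.42.0, limma 3.58.1 (voom with quality weights, and the deposited log2 values), other scalings and filters, a test against 1.5-fold, the replicate number as a block, and each pool left out. Same-numbered pools of the cohorts shared no stated source, and the numbers were not treated as pairs. A few called genes are not reported here by name.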

Additional observations from a re-analysis of the deposited data

How the results depend on the processing

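The number of called genes depended on how the spread was estimated, and the cause was not tested. Beside the 510 genes, 1084 were called with the 6 compared pools alone, 782 by DESeq2 with 12 pools and 1152 with 6, and 1197 by limma with voom quality weights. Of the 510 genes, 494, 502, 501 and 489 were shared with these. Without the 1.5-fold criterion 953 passed, and a test against 1.5-fold itself called 40. Leaving out 1 of the compared pools gave 249 to 307 genes with 12 pools and, chosen after seeing the data, 994, 962 and 867 (without PND 16 large replicate 1, 2 or 3) and 908, 833 and 883 (without PND 40 replicate 1, 2 or 3) with 6. The lowest counts were those without PND 16 large replicate 3 (249) and PND 40 replicate 3 (254). Leaving out a PND 13 or PND 16 small pool gave 466 to 677. The other settings stayed within 1.5 times of 510, with 514 under RLE scaling, 518 under upper quartile scaling, 494 under total count scaling, 467 with no filter, 525 with at least 1 CPM in 3 pools and 536 by limma on the deposited log2 values. Total counts moved the share of higher calls from 63.9% to 70.2%. Pools with the same replicate number did not deviate together (correlations 0.0678, 0.00854 and 0.0427), and with the replicate number as a block 392 genes were called, 382 of them among the 510, and 1041 with the 6 pools (added after seeing the data). Over 13 settings, the 6 without 1 compared pool and 7 others (the 6 pools alone, DESeq2 with 12 pools, voom weights, 3 scalings and the block), 59 of 142 named called genes kept their calls throughout and 105 in the 7, and none reversed its direction. The test against 1.5-fold is not among the 13. The median standard error was 0.84 on the log2 scale for genes under 1 CPM.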

Other observations

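Called genes were spread over the genome, from 2.24% of the genes tested on chromosome 17 to 5.99% on chromosome 14. Among genes tested, 33 pairs of direct neighbours were both called, 16 of them both higher at PND 40, 6 both lower and 11 in opposite directions. Pabpn1l and Cbfa2t3 lie 2401 bases apart on chromosome 8, with log2 fold changes of 1.05 and 2.59. Arap1 and Pde2a lie 9105 bases apart on chromosome 7 (1.44 and 2.25), and Ptprv and Arl8a 14259 bases apart on chromosome 1 (1.25 and 1.15). In the opposite case, Sohlh2 (1.67) and Dclk1 (-0.66) lie 32346 bases apart on chromosome 3. Whether neighbours move together more often than other pairs was not tested.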
